A study of Mus musculus with 48 samples.

Results

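The Gadd45 genes, the stress-inducible polo-like kinase genes Plk2 and Plk3 and 5 further p53 target genes are described here across mouse bone and MLO-Y4 cells. The 10 genes were taken by symbol (Gadd45a, Gadd45b, Gadd45g, Plk2, Plk3, Mdm2, Cdkn1a, Ccng1, Bbc3 and Phlda3), and each had 1 of the 55335 gene rows of each of 4 expression tables. Poly(A)-selected RNA was sequenced, and levels are given as FPKM, a fragment count divided by transcript length and library size. All groups are labelled wild type on the C57BL/6J strain, and 9 groups of 3 libraries had values here, while 21 of the 48 labelled samples were not analysed here. MLO-Y4 is 1 murine line that resembles osteocytes, which sit inside mineralized bone. It received 50 µM oligomycin A, which blocks the ATP synthase of mitochondria, for 1 h, or vehicle (DMSO) for 1 h. Other MLO-Y4 cells received the culture supernatant of the oligomycin A cells for 2 h, or that of the vehicle cells for 2 h. A separate table held MLO-Y4 cells given 2 µM ADP, a nucleotide sensed by P2Y receptors, for 2 h, and untreated cells without ADP. Fragments of long and parietal bones from mice aged 1 month were labelled as medium transfer or transfer control, with 48 h of culture after the transfer in the protocol, and cortical bone from mice aged 18 months stood alone in its table. The treatment labels of these 4 oligomycin A and vehicle groups give 50 mM, the stock of the protocol, and those of both vehicle groups name oligomycin A beside DMSO, while their titles give DMSO alone. Neither the donor of the medium given to each young bone group nor removal of the drug from the supernatant is stated in the labels. Nor are replicates said to be separate cultures or animals, and p-values therefore cover no more than sample-to-sample spread, possibly technical.

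The p53 protein is a transcription factor that is held at a low level in unstressed cells and raises genes of growth arrest, DNA repair and cell death when it is stabilized. Mdm2, itself a p53 target, encodes the ubiquitin ligase that returns p53 to a low level, and Cdkn1a encodes p21, an inhibitor of cyclin-dependent kinases. Gadd45 and Plk genes are also induced by other stress routes, and the small Gadd45 proteins bind the kinase Map3k4, the clamp protein PCNA and the mitotic kinase Cdk1.

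Promoter windows of RefSeq (build GRCm38.p6, 250 bases before to 50 after a start of transcription) were found for all 10 genes, 13 windows in all, and were searched on both strands for 5 motifs. The 4 windows below belong to genes the results turn on and differ in what they hold, with a motif match in capitals and the rest in lower case.
Gadd45a: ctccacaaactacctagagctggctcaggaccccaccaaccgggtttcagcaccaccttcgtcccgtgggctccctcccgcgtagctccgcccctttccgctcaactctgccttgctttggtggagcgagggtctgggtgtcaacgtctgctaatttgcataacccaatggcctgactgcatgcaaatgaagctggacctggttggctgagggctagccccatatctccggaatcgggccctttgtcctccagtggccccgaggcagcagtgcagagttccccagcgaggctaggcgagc
Gadd45g: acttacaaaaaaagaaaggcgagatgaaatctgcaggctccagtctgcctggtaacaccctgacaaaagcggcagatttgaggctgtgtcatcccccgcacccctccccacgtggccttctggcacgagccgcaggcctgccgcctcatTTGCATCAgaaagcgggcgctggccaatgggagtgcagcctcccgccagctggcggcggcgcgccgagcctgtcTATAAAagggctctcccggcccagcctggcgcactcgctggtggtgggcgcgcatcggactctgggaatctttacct
Plk2: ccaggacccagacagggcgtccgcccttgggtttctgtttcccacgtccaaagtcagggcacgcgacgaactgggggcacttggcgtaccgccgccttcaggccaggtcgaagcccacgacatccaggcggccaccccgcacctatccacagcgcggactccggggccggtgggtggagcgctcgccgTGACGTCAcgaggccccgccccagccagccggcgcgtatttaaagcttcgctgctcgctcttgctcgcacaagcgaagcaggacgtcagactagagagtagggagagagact
Cdkn1a: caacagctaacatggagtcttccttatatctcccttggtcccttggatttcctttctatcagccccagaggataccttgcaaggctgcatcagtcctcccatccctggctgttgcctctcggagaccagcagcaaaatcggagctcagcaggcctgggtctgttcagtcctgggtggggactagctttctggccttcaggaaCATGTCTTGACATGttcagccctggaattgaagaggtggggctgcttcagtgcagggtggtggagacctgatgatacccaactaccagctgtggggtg
The Gadd45a window (chr6:67037358-67037657, minus strand) held none of the 5 motifs. In the Gadd45g window (chr13:51846425-51846724, plus strand) the capitals mark TTGCATCA, the minus-strand form of the C/EBP-ATF composite element TGATGNAA, starting 101 bases before the annotated start, and the TATA box TATAAA 27 bases before it. In the Plk2 window (chr13:110394794-110395093, plus strand) they mark the cAMP response element TGACGTCA, 62 bases before the start. In the upstream Cdkn1a window (chr17:29090729-29091028, plus strand) they mark a pair of p53 core motifs, CATG, 6 bases and CATG, beginning 48 bases before that start. The other Cdkn1a window, of a start 2790 bases downstream, held none of the motifs. Of all 32851 windows, 0.712% held the p53 core pair, 1.79% the cAMP response element, 3.97% the C/EBP-ATF element, 13.6% the TATA box, which Gadd45b also had, and 7.81% the AP-1 motif TGANTCA, which none of the 13 windows had. A match is a run of letters, not a measured binding site, and the motifs overlap in no window. Only the stated form of each motif was searched, within these windows, so a missing match does not show that a gene lacks a site.

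Depth was estimated from the steps between low values. It came to 15.0 to 25.4 M fragments for MLO-Y4 cells, and to 30.2 to 35.9 M for the bone of old mice. For young bone it was 2.89 to 6.69 M. Low values clustered weakly in both bone tables, so the depths of bone libraries are rough at best and may not be recoverable. In vehicle replicate 2 rRNA-like genes took up 26.5% of the FPKM sum, against 0.212% to 0.415% in the other libraries of that table. Of 7 osteocyte markers 3 reached a mean of 1 FPKM in MLO-Y4 cells. These were Pdpn at 151 to 290 FPKM, Phex at 7.04 to 12.9 FPKM and Irx5 at 1.72 to 3.61 FPKM. Sost was listed at 0 in every MLO-Y4 library, and Dmp1, Mepe and Fgf23 had at most 0.134 FPKM. Old cortical bone held 356500 to 379000 FPKM in 6 erythroid markers and 98160 to 103700 FPKM in 7 neutrophil markers, and the protocol's wording leaves marrow with the bone. In bulk samples such as these, fewer cells of a type and less RNA per cell cannot be told apart.

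All 10 genes passed the mean of 1 FPKM used as a filter in each fit. Plk2 had the highest mean of the 10 in oligomycin A cells (129.7 FPKM), in oligomycin A supernatant recipients, in vehicle cells and in both ADP groups, whereas Cdkn1a led in vehicle supernatant recipients (51.7 FPKM) and in both young bone groups. Gadd45a led in old cortical bone at 46.2 ± 11.1 FPKM (SD, n = 3), where Plk2 was the lowest of the 10 at 1.31 ± 0.11 FPKM. Bbc3, which encodes the pro-apoptotic BH3-only protein PUMA, stayed between group means of 2.25 and 5.03 FPKM. Tables were normalized separately, so levels from different tables are set side by side here without a test.

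**Figure D1:**
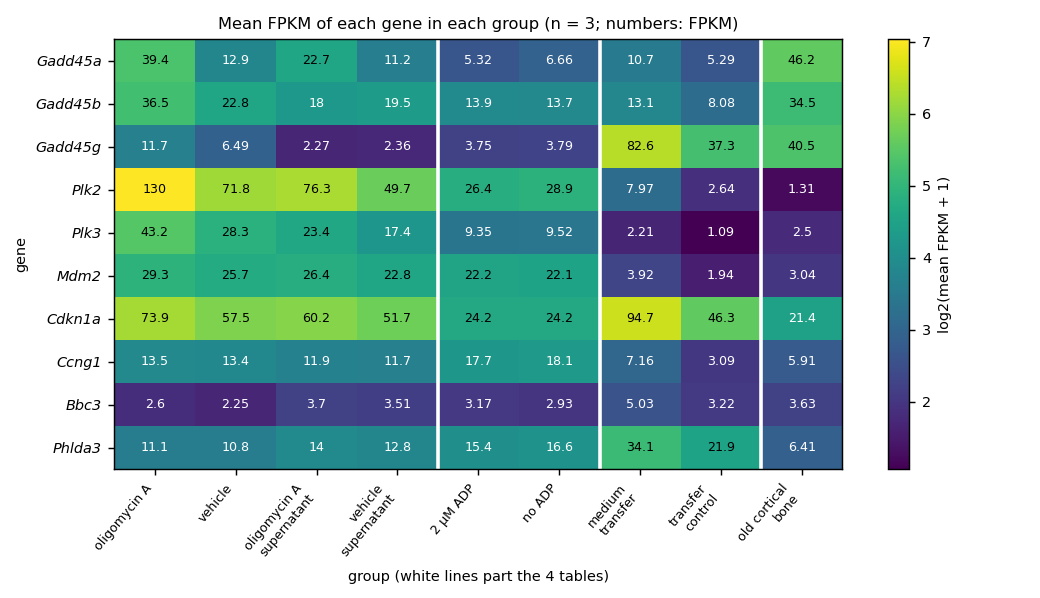
Mean FPKM of the 10 genes (down the page) in the 9 groups of 3 libraries (across), coloured by log2(mean FPKM + 1), with white lines between the 4 tables. Plk2 reaches 129.7 FPKM in oligomycin A cells and 1.31 FPKM in old cortical bone, and Gadd45g reaches 82.6 FPKM in young bone after medium transfer.

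All 3 Gadd45 genes and both Plk genes rose in MLO-Y4 cells given oligomycin A for 1 h, while Mdm2, Cdkn1a, Ccng1, Bbc3 and Phlda3 did not pass the test. Of the 10 genes 5 were higher and 0 lower at a limma adjusted p under 0.05, the threshold used throughout, against 3.71% of the 11902 tested genes higher, 1.63% lower and 5.34% in either direction. The median log2 fold change, taken on log2(FPKM + 1), was 0.48 over the 10 genes and -0.0037 over all tested genes. Libraries of the groups stood apart, with every oligomycin A library higher, for 7 of the 10 genes and for 16.8% of all tested genes. The 10 genes were chosen with earlier results of these data known. Such counts and medians, here and below, therefore describe the 10 genes and do not test them as a set.

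Gadd45a (ENSMUSG00000036390, chromosome 6, 67035096 to 67037457, minus strand, GRCm38, protein-coding), the family member best known as a p53 target, had 42.7, 31.1 and 44.3 FPKM in oligomycin A cells, against 16.0, 11.8 and 11.0 FPKM in vehicle cells. The lowest treated library was well above the highest vehicle library. Gadd45a rose by 1.53 ± 0.21 on the log2 scale (SE, limma adjusted p = 0.00176), and by 3.04-fold as a ratio of mean FPKM. Gadd45b (chromosome 10, 80930073 to 80932204, plus strand), known as a target of NF-kB and TGF-beta signalling, had 34.9, 35.2 and 39.5 FPKM in oligomycin A cells, against 22.1, 21.6 and 24.6 FPKM in vehicle cells. The libraries within each group lay close together and the groups did not overlap. Its log2 fold change was 0.66 ± 0.09 (limma adjusted p = 0.00161). Gadd45g (chromosome 13, 51846678 to 51848468, plus strand), the member of lowest level in these cells, had 12.2, 13.3 and 9.62 FPKM in oligomycin A cells, against 7.39, 5.03 and 7.06 FPKM in vehicle cells. Again every treated library was above every vehicle library. The log2 fold change of Gadd45g was 0.77 ± 0.15 (limma adjusted p = 0.0131), and it lost its call without oligomycin A replicate 1 (0.74, adjusted p = 0.0582) or replicate 2 (0.68, adjusted p = 0.0591).

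Plk2 (chromosome 13, 110395046 to 110400844, plus strand), a kinase of centriole duplication and of synaptic scaling that is also a p53 target, had 135, 129 and 125 FPKM in oligomycin A cells, against 74.4, 69.0 and 72.2 FPKM in vehicle cells. The spread within groups was small beside the gap between them. Plk2 rose by 0.84 ± 0.13 on the log2 scale (limma adjusted p = 0.00376). Plk3 (chromosome 4, 117128655 to 117133963, minus strand), an immediate early gene of the same kinase family, had 42.5, 45.4 and 41.5 FPKM in oligomycin A cells, against 30.1, 28.5 and 26.2 FPKM in vehicle cells, with no overlap. Its log2 fold change was 0.59 ± 0.10 (limma adjusted p = 0.00809). With vehicle replicate 2 left out for its rRNA-like share, all 5 calls were kept, with log2 fold changes of 1.48 for Gadd45a, 0.62 for Gadd45b, 0.62 for Gadd45g, 0.81 for Plk2 and 0.60 for Plk3.

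Cdkn1a (chromosome 17, 29090976 to 29100727, plus strand) had 75.2, 73.4 and 73.1 FPKM in oligomycin A cells, against 61.2, 52.3 and 59.2 FPKM in vehicle cells. The groups stood apart, with treated cells higher, but the log2 fold change of 0.36 ± 0.10 did not pass (limma adjusted p = 0.0728). It passed in 2 of 17 alternatives, with median-of-ratios scaling (adjusted p = 0.0486) and in a fit of only these 6 libraries (adjusted p = 0.0336). Without vehicle replicate 2, the lowest vehicle library for Cdkn1a, it was 0.29 (adjusted p = 0.155). Mdm2 (chromosome 10, 117688875 to 117710758, minus strand) had 29.6, 29.0 and 29.2 FPKM in oligomycin A cells, against 26.1, 23.4 and 27.5 FPKM in vehicle cells. These groups also did not overlap, by a small margin. The log2 fold change of Mdm2 was 0.19 ± 0.06 (limma adjusted p = 0.114). It passed in 2 of 17 alternatives, with median-of-ratios scaling (adjusted p = 0.0323) and with quantile normalization (adjusted p = 0.0305). Without vehicle replicate 2, again the lowest vehicle library, it was 0.12 (adjusted p = 0.208). For Ccng1, which encodes cyclin G1, treated cells had 12.8, 13.9 and 13.9 FPKM and vehicle cells 13.4, 12.4 and 14.4 FPKM, a log2 fold change of 0.013 with a 95% interval from -0.15 to 0.18. Bbc3 had 2.11, 2.96 and 2.73 FPKM in treated cells and 2.38, 2.11 and 2.27 FPKM in vehicle cells (0.14, interval -0.16 to 0.43). Phlda3, which encodes a PH-domain inhibitor of the kinase Akt, had 11.4, 10.7 and 11.1 FPKM in treated cells and 11.4, 9.49 and 11.5 FPKM in vehicle cells (0.037, interval -0.18 to 0.26). In these 3 genes the libraries of the groups were mixed. The p53 gene itself, Trp53, given because the group is named for it, had 13.8, 15.4 and 15.9 FPKM in treated cells and 17.8, 15.2 and 14.9 FPKM in vehicle cells, with overlap. Neither p53 protein nor its activity was measured, so whether the p53 pathway is intact in this line is not known here.

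**Figure D2:**
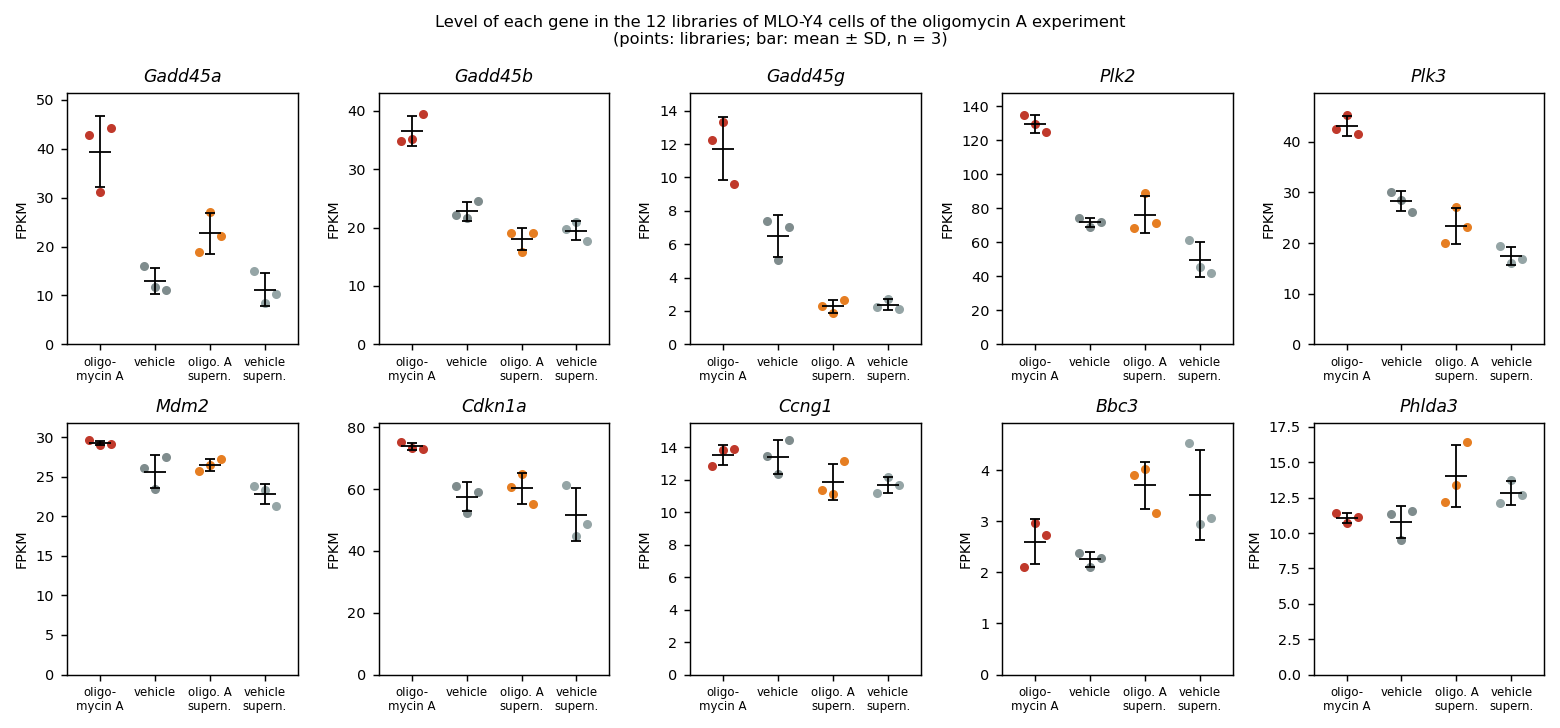
FPKM of each gene in the 12 libraries of the oligomycin A table, with points for libraries and bars for mean ± SD (n = 3). Oligomycin A libraries stand above vehicle libraries for 7 genes, and the groups overlap for Ccng1, Bbc3 and Phlda3.

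Genes beyond the 10 were read from 3 lists. Of 29 tested genes among 34 other p53 targets, 2 were higher and 0 lower in oligomycin A cells, with a list median of -0.040. These were Btg2, an antiproliferative gene that is also an immediate early gene, at 172 ± 3.94 FPKM in treated cells and 30.9 ± 1.64 FPKM in vehicle cells (SD, n = 3 each), and Sesn2, a sestrin that inhibits mTORC1 signalling, at 37.7 ± 1.74 FPKM in treated cells and 19.9 ± 1.75 FPKM in vehicle cells. Their log2 fold changes were 2.44 ± 0.11 and 0.89 ± 0.12 (limma adjusted p = 2.02e-07 and 0.00159). At an unadjusted p under 0.05, 4 of the 29 were higher and 7 lower, where 12.2% of all tested genes were higher and 10.0% lower. Of 13 tested genes for p53 and its regulators 0 passed, with 2 at an unadjusted p under 0.05, the checkpoint kinase gene Chek1 at 0.12 and the p53 relative Trp63 at 0.16. Of 19 tested family members and partners 2 were higher, Phlda1 at 0.79 ± 0.10 (limma adjusted p = 0.00116) and Cdkn1b, the gene of the inhibitor p27, at 0.47 ± 0.09 (limma adjusted p = 0.0114).

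The supernatant comparison sets recipients of oligomycin A supernatant against recipients of vehicle supernatant. Removal of the drug is not stated, so carried-over drug and a signal from treated cells cannot be told apart. Of the 10 genes 0 passed in recipients of oligomycin A supernatant, where 0.386% of tested genes did in either direction and 0.277% were higher. At an unadjusted p under 0.05, 4 genes were higher, Gadd45a, Plk2, Plk3 and Mdm2, against 4.28% of all tested genes. The libraries of the same 4 genes stood apart, with recipients of oligomycin A supernatant higher, against 6.65% of all tested genes. The median log2 fold change was 0.16 over the 10 genes and -0.0039 over all tested genes.

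Gadd45a had 18.9, 27.1 and 22.0 FPKM with oligomycin A supernatant, against 14.9, 8.39 and 10.2 FPKM with vehicle supernatant. Vehicle supernatant replicate 1 was the highest of its group and lay nearest to the other group. The log2 fold change of Gadd45a was 0.98 ± 0.21 (limma adjusted p = 0.108), and without that library it was 1.19 and passed (adjusted p = 0.0395). Gadd45a passed in only that 1 of 17 alternatives, which ran from 0.81 to 1.19 with adjusted p up to 0.341. Plk2 had 68.4, 88.9 and 71.6 FPKM with oligomycin A supernatant, against 61.4, 45.5 and 42.2 FPKM with vehicle supernatant, and the same vehicle library was the high one. Its log2 fold change was 0.62 ± 0.13 (limma adjusted p = 0.0907), and without that library it was 0.78 and passed (adjusted p = 0.00795). Plk2 too passed in only that 1 of 17 alternatives, which ran from 0.50 to 0.78 with adjusted p up to 0.400. Plk3 had 20.0, 27.1 and 23.3 FPKM with oligomycin A supernatant, against 19.4, 16.0 and 16.8 FPKM with vehicle supernatant. The lowest recipient library was just above the highest vehicle one, and the log2 fold change of 0.40 ± 0.10 did not pass (limma adjusted p = 0.191).

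Mdm2 had 25.7, 26.4 and 27.2 FPKM with oligomycin A supernatant, against 23.8, 23.3 and 21.3 FPKM with vehicle supernatant (log2 fold change 0.21 ± 0.06, limma adjusted p = 0.316). The groups did not overlap, in a narrow range. Cdkn1a had 60.7, 64.8 and 55.1 FPKM with oligomycin A supernatant, against 61.4, 45.0 and 48.7 FPKM with vehicle supernatant, and the groups overlapped (0.23, 95% interval -0.0043 to 0.45). Gadd45b had 19.1, 15.8 and 19.1 FPKM with oligomycin A supernatant, against 19.8, 20.9 and 17.7 FPKM with vehicle supernatant. The libraries were mixed, and the log2 fold change of -0.11 had an interval from -0.30 to 0.085. Gadd45g had 2.31, 1.89 and 2.63 FPKM with oligomycin A supernatant, against 2.21, 2.74 and 2.14 FPKM with vehicle supernatant, near the filter of 1 FPKM and with overlap (-0.040, interval -0.36 to 0.28). Ccng1, Bbc3 and Phlda3 overlapped too, with log2 fold changes of 0.019, 0.072 and 0.11.

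Among the other p53 targets, Btg2 and Sesn2 were again the 2 called higher of 29 and 0 were lower, with a list median of 0.054. Btg2 had 22.0 ± 2.85 FPKM with oligomycin A supernatant and 11.3 ± 2.04 FPKM with vehicle supernatant, and Sesn2 had 33.2 ± 5.67 FPKM with oligomycin A supernatant and 16.7 ± 1.96 FPKM with vehicle supernatant (SD, n = 3 each). The log2 fold changes were 0.90 ± 0.11 and 0.94 ± 0.12 (limma adjusted p = 0.00515 and 0.00561). Phlda1 was the 1 gene of 19 family members and partners that passed, at 0.64 ± 0.10 (limma adjusted p = 0.0206). Of 13 genes for p53 and its regulators 0 passed, and 0 had an unadjusted p under 0.05, against 8.08% of all tested genes, with Trp53 at 0.083 and Trp63 at -0.062. At that p, 3 of the other p53 targets were higher and 2 lower, and 4 family members and partners were higher and 1 lower.

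The 2 responses were set against each other in one model, as the response of recipients minus that of treated cells. Exposure lasted 2 h in recipients but 1 h in treated cells, so duration cannot be told apart from the route. Gadd45b was the 1 of the 10 genes whose responses differed, by -0.77 ± 0.13 (limma adjusted p = 0.0197), with -0.11 in recipients and 0.66 in treated cells. Over all tested genes 0.445% differed in either direction and 0.361% had the lower response in recipients. The call was lost without vehicle replicate 1 (-0.75, adjusted p = 0.0624), without vehicle replicate 2 (-0.73, 0.0541), without oligomycin A replicate 3 (-0.71, 0.0637), and without vehicle supernatant replicate 1 (-0.76, 0.0556) or replicate 2 (-0.72, 0.0663). Gadd45g differed by -0.81 ± 0.21, which did not pass (limma adjusted p = 0.159). For Gadd45a the difference was -0.55 (95% interval -1.21 to 0.099), for Plk2 -0.23 (-0.62 to 0.17) and for Plk3 -0.19 (-0.51 to 0.13), so these intervals hold both no difference and a sizeable one. Btg2 differed by -1.54 ± 0.16 (limma adjusted p = 0.000616), the 1 called of 29 other p53 targets, while 0 of 13 regulators and 0 of 19 family members did, with 0 and 1 at an unadjusted p under 0.05, against 10.7% of all tested genes. At that p, 4 of the 29 other p53 targets had the higher response in recipients and 2 the lower. The smallest p among regulators were those of Trp63 (-0.22) and Chek1 (-0.13), and among family members those of Bid (-0.46) and Cdkn1b (-0.22). For Mdm2, Cdkn1a, Ccng1, Bbc3 and Phlda3 the differences were 0.020, -0.13, 0.0060, -0.068 and 0.073.

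Vehicle supernatant recipients and vehicle cells differed in duration, 2 h against 1 h, and in medium, and these cannot be told apart. Gadd45g, Plk2 and Plk3 fell in vehicle supernatant recipients and Bbc3 rose, 3 lower and 1 higher of the 10, against 5.18% of tested genes lower, 9.49% higher and 14.7% in either direction. Gadd45g had 2.21, 2.74 and 2.14 FPKM in vehicle supernatant recipients, against 7.39, 5.03 and 7.06 FPKM in vehicle cells. The lowest vehicle library was well above the highest recipient library. Its log2 fold change was -1.14 ± 0.15 (limma adjusted p = 0.000806), and it passed in all 17 alternatives. Plk3 had 19.4, 16.0 and 16.8 FPKM in vehicle supernatant recipients, against 30.1, 28.5 and 26.2 FPKM in vehicle cells, also without overlap. Plk3 fell by 0.67 on the log2 scale (limma adjusted p = 0.00206) and passed in all 17 alternatives.

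Plk2 had 61.4, 45.5 and 42.2 FPKM in vehicle supernatant recipients, against 74.4, 69.0 and 72.2 FPKM in vehicle cells. The groups stood apart, with recipient replicate 1 nearest to the vehicle cells. The log2 fold change was -0.54 ± 0.13 (limma adjusted p = 0.0174), and it did not pass without vehicle replicate 1 (-0.52, adjusted p = 0.0514), vehicle supernatant replicate 2 (-0.49, 0.0563) or replicate 3 (-0.43, 0.0647), with no filter (0.0520), rescaled to one total (0.137) or in a fit of only these 6 libraries (0.0503). Bbc3 had 4.53, 2.94 and 3.07 FPKM in vehicle supernatant recipients, against 2.38, 2.11 and 2.27 FPKM in vehicle cells. Every recipient library was higher, and replicate 1 was highest. Its log2 fold change was 0.46 ± 0.13 (limma adjusted p = 0.0435), a call kept in 5 of 16 alternatives. It was lost without vehicle replicates 1, 2 or 3 (0.48, 0.42 and 0.46, adjusted p = 0.0734, 0.111 and 0.0900) and without vehicle supernatant replicates 1 or 3 (0.30 and 0.52, adjusted p = 0.136 and 0.0581).

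Gadd45b and Ccng1 also stood apart, lower in recipients, which with the 3 called genes made 5 of 10 against 12.6% of tested genes, and Phlda3 and Bbc3 stood apart as higher against 21.6%. Gadd45b was at -0.22, Ccng1 at -0.18 and Phlda3 at 0.23 (limma adjusted p = 0.129, 0.124 and 0.144), and Gadd45a, Mdm2 and Cdkn1a overlapped at -0.21, -0.16 and -0.16. Mdm2 passed without vehicle replicate 2 (-0.22, adjusted p = 0.0299), and Mdm2, Ccng1 and Gadd45b passed with quantile normalization (adjusted p = 0.00814, 0.0257 and 0.0490). Among 17 alternatives Mdm2 passed in 4, Ccng1 in 3 and Gadd45b in 2. Of the 29 other p53 targets 3 were lower and 0 higher: Btg2 at -1.38, the epoxide hydrolase gene Ephx1 at -0.28 and Sfn, the gene of 14-3-3 sigma, at -0.46 (limma adjusted p = 4.73e-05, 0.0163 and 0.0384). Of 19 family members and partners 4 were lower and 1 higher. Phlda1 was at -1.01, the Gadd45-binding kinase gene Map3k4 at -0.40, Ccng2 at -0.46 and the BH3-only gene Bad at -0.57, while Bid, another BH3-only gene, was at 0.53 (limma adjusted p = 0.000183, 0.00254, 0.00457, 0.0168 and 0.0306). Of 13 regulators 0 passed and 0 had an unadjusted p under 0.05, against 30.0% of all tested genes, with Mdm4 at 0.13 and Chek2 at -0.11. At that p, 2 of the 10 genes were higher and 6 lower. So were 2 and 5 of the 29 other p53 targets, and 2 and 5 of the 19 family members and partners.

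**Figure D3:**
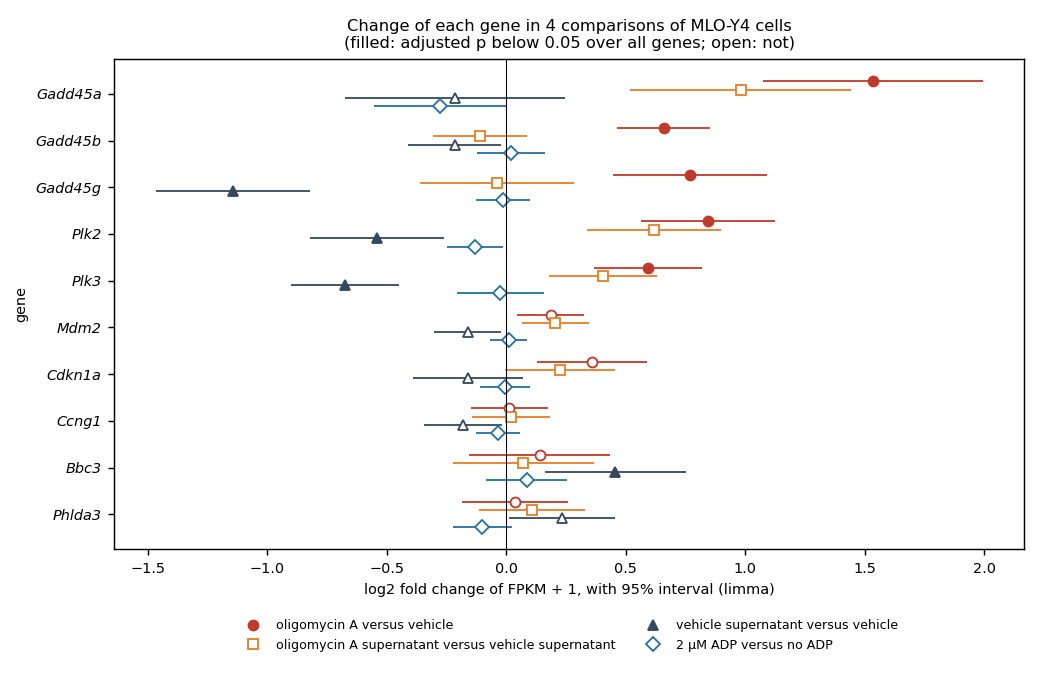
Log2 fold change of FPKM + 1 with its 95% interval (x axis) for each gene (y axis) in 4 comparisons of MLO-Y4 cells, filled where the limma adjusted p was under 0.05. The 5 filled circles of oligomycin A against vehicle are the Gadd45 and Plk genes, and the filled triangles of vehicle supernatant against vehicle are Gadd45g, Plk2, Plk3 and Bbc3.

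Addition of 2 µM ADP for 2 h left the 10 genes without a call: 0 passed in limma, where 0.0603% of 11604 tested genes did, and 2 had an unadjusted p under 0.05, both lower, against 2.37% of tested genes. Plk2 had 27.4, 24.8 and 26.9 FPKM with ADP, against 29.5, 29.7 and 27.6 FPKM without ADP. The groups did not overlap, with ADP lower, as for 5.27% of all tested genes. Its log2 fold change was -0.13 (95% interval -0.25 to -0.013, limma adjusted p = 0.842). Gadd45a had 5.10, 4.71 and 6.14 FPKM with ADP, against 6.59, 7.57 and 5.81 FPKM without ADP, with overlap (-0.28, interval -0.55 to -0.0017, adjusted p = 0.842). Gadd45b had 14.5, 13.0 and 14.2 FPKM with ADP, against 13.6, 14.5 and 12.9 FPKM without ADP, and Gadd45g had 3.84, 3.52 and 3.87 FPKM with ADP, against 3.81, 3.84 and 3.72 FPKM without ADP. Neither gene separated the groups, and the log2 fold changes were 0.020 (interval -0.12 to 0.16) and -0.015 (interval -0.13 to 0.099). For Cdkn1a the log2 fold change was -0.0051 with an interval from -0.11 to 0.098, and for Mdm2 it was 0.0096 with an interval from -0.067 to 0.087. In these 2 genes the intervals leave little room for a change between these libraries, at this dose and time. Like the p-values, they cover a spread that is possibly technical. Plk3, Ccng1, Bbc3 and Phlda3 had values from -0.10 to 0.086, with overlapping libraries.

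The lists gave the same count, 0 called with ADP. Of 28 tested other p53 targets 3 had an unadjusted p under 0.05, against 5.84% of all tested genes, led by Rps27l at 0.19 and Ak1 at -0.10 (limma adjusted p = 0.830 and 0.842). Among 12 regulators 0 did, with the ubiquitin ligase genes Rchy1 at 0.072 and Cop1, listed as Rfwd2, at 0.063. Of 19 family members and partners 2 did: Cdkn2d, the gene of the inhibitor p19, had 5.22 ± 0.14 FPKM with ADP and 8.56 ± 0.73 FPKM without ADP (SD, n = 3 each, -0.62, limma adjusted p = 0.0695), and Bad was at 0.36.

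In young bone fragments 0 of the 10 genes passed between medium transfer and transfer control, and 0 had an unadjusted p under 0.05, against 0.0243% and 2.24% of 16438 tested genes. Each gene was highest in medium transfer replicate 2 as deposited, a library with 5.80% of its summed FPKM in satellite-like genes, against 66.1% and 89.9% in the other transfer libraries and 81.7% to 88.6% in the controls. The part of this in the levels was not tested. For Cdkn1a, Gadd45g and Plk3, values rescaled to one total without satellite-like, rRNA-like, 7S and mitochondrial genes are given beside the deposited ones. As deposited, summed levels of 6 erythroid markers were 10510 to 20880 FPKM after medium transfer and 3838 to 8062 FPKM in transfer control. In the same order, 5 B lineage markers had 18.2 to 55.9 and 10.2 to 17.4 FPKM, and 4 adipocyte markers 9.8 to 95.3 and 3.75 to 4.27 FPKM. Sums of 5 osteoclast markers, 792 to 4921 and 686 to 858 FPKM, overlapped. Those of osteocyte, osteoblast, neutrophil, endothelial, skeletal muscle and macrophage markers overlapped too. The part of these cells in the levels was not tested either. Marker sums were not rescaled, so in them a difference in cells and one in satellite-like share cannot be told apart. Cdkn1a had 79.8, 176 and 28.2 FPKM after medium transfer, against 46.5, 28.6 and 63.8 FPKM in transfer control. Rescaled, it had 66.2, 83.5 and 54.9 FPKM after medium transfer, against 66.0, 49.7 and 71.6 FPKM in transfer control, so the groups overlapped either way. Gadd45g had 48.8, 173 and 25.5 FPKM after medium transfer, against 33.4, 33.1 and 45.5 FPKM in transfer control. Rescaled, Gadd45g had 40.5, 82.2 and 49.7 FPKM after medium transfer, against 47.4, 57.5 and 51.0 FPKM in transfer control. Again the groups overlapped on both scales.

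Log2 fold changes in young bone, as deposited, were 0.73 for Cdkn1a (95% interval -1.06 to 2.52), 0.69 for Gadd45g (-1.09 to 2.47), 0.74 for Gadd45a (-0.71 to 2.19), 0.91 for Plk2 (-0.44 to 2.25) and 0.51 for Gadd45b (-1.03 to 2.06). Each of these 5 intervals holds changes of either sign. The median of the 10 was 0.67, beside 0.45 over all tested genes, and all limma adjusted p were 0.900 to 0.925. Plk3 alone among the 10 had libraries that stood apart, at 2.05, 2.91 and 1.66 FPKM after medium transfer, against 1.49, 0.974 and 0.805 FPKM in transfer control, as 3.49% of tested genes did in this direction. Rescaled, Plk3 overlapped, with 1.70, 1.38 and 3.23 FPKM after medium transfer, against 2.11, 1.69 and 0.903 FPKM in transfer control. The sign of Gadd45b, Bbc3 and Phlda3 turned with rescaling without those genes, to -0.062, -0.33 and -0.27, and without medium transfer replicate 2 the sign of Gadd45g, Bbc3 and Phlda3 turned, to -0.062, -0.50 and -0.34. The lists had 0 calls and 0 genes at an unadjusted p under 0.05, with Xpc at 0.94, Dcxr at 1.16, Usp7 at 0.64, Rchy1 at 0.67, Bid at 1.17 and Plk1 at 0.67 as the smallest p of their lists.

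**Figure D4:**
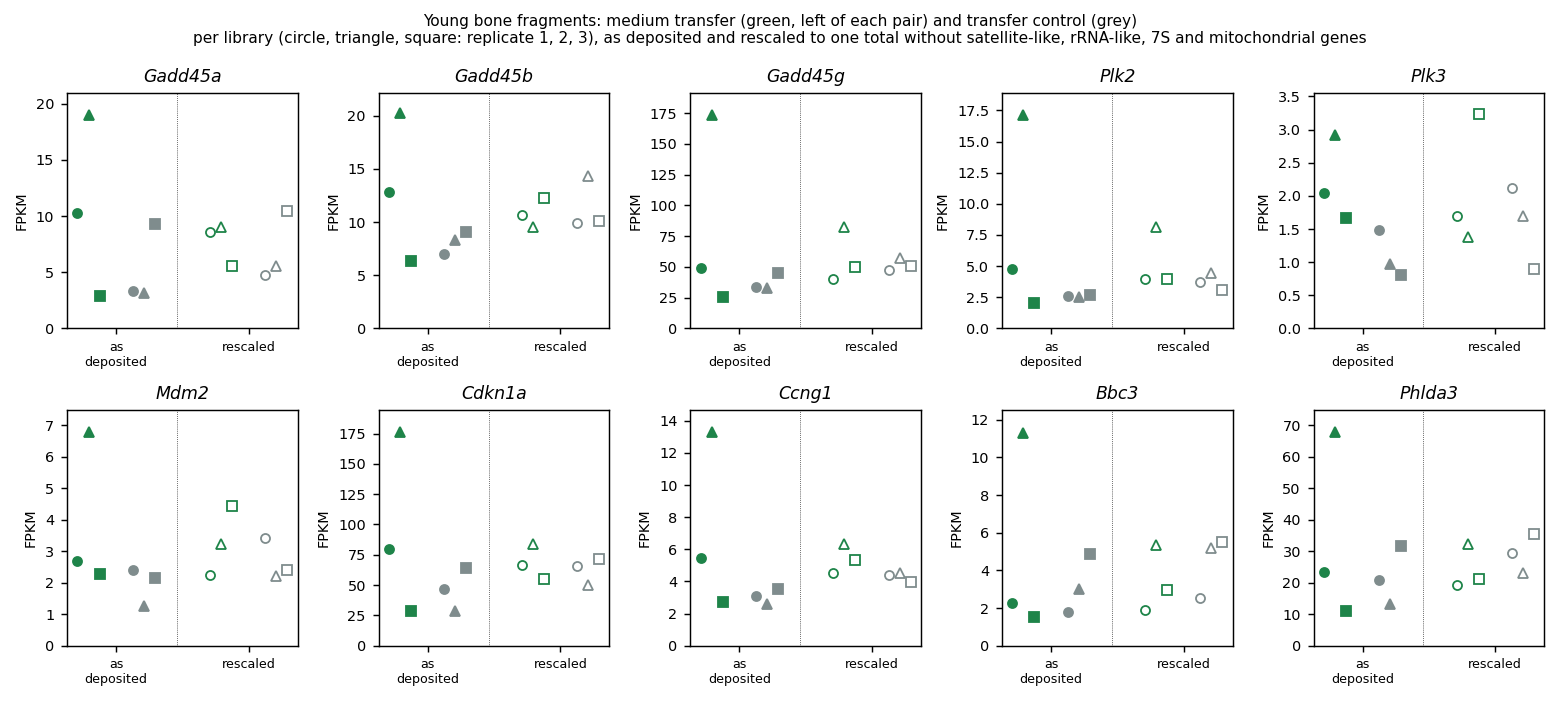
FPKM of each gene in young bone after medium transfer (green, left) and in transfer control (grey, right), with a shape per replicate, as deposited (filled) and rescaled to one total without satellite-like, rRNA-like, 7S and mitochondrial genes (open). Medium transfer replicate 2 (triangle) is highest in every panel as deposited, and Cdkn1a stands at 83.5 FPKM there after rescaling.

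Old cortical bone had no group to be compared with. Its Gadd45a levels were 54.9, 33.7 and 50.1 FPKM, its Gadd45b levels 38.0, 38.6 and 26.8 FPKM and its Gadd45g levels 35.5, 46.7 and 39.3 FPKM. The 3 Gadd45 genes were thus of like level there, at the 89.4th to 91.9th percentile of genes with at least 1 FPKM. Cdkn1a was uneven, with 15.0, 36.0 and 13.2 FPKM, and replicate 2 was the high library. The summed level of 7 osteocyte markers ran from 39.7 to 206 FPKM and was also highest in replicate 2; its part in the Cdkn1a level was not tested. Plk2 had 1.35, 1.18 and 1.38 FPKM and Plk3 2.09, 1.89 and 3.52 FPKM, so Plk3 was the higher of the pair in each library. Mdm2, Ccng1, Bbc3 and Phlda3 had means of 3.04 ± 0.21, 5.91 ± 0.67, 3.63 ± 1.15 and 6.41 ± 1.04 FPKM (SD, n = 3).

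The make-up of the Gadd45 family, as shares of the summed FPKM of its 3 genes, differed between the sample types. Gadd45a held 44.7% ± 4.88 of the family in oligomycin A cells and 30.6% ± 4.64 in vehicle cells, and 52.6% ± 7.04 in oligomycin A supernatant recipients and 33.5% ± 7.11 in vehicle supernatant recipients (SD, n = 3 each). The highest vehicle share, 35.2%, was below the lowest oligomycin A share, 39.1%, and the highest vehicle supernatant share, 40.4%, was below the lowest oligomycin A supernatant share, 46.9%. Gadd45b held the largest share in vehicle cells (54.1%), vehicle supernatant recipients (59.3%), and cells with ADP (60.6%) and without ADP (56.7%). In young bone Gadd45g held most of the family, 74.3% ± 6.90 after medium transfer and 74.0% ± 2.59 in transfer control, shares that do not depend on how a library is scaled. In old cortical bone the shares were 38.1% for Gadd45a, 28.4% for Gadd45b and 33.6% for Gadd45g. Summed over the 3 genes, oligomycin A cells had 87.6 ± 7.13 FPKM and vehicle cells 42.2 ± 3.60 FPKM. Plk2 was 2.55 to 3.26 times Plk3 in the group means of MLO-Y4 cells and 0.554 ± 0.14 times Plk3 in old cortical bone. In young bone it was 2.59 ± 0.81 times Plk3 in transfer control and 3.14 ± 2.42 times after medium transfer, within the cell line's range of means. These shares are levels and were not tested.

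**Figure D5:**
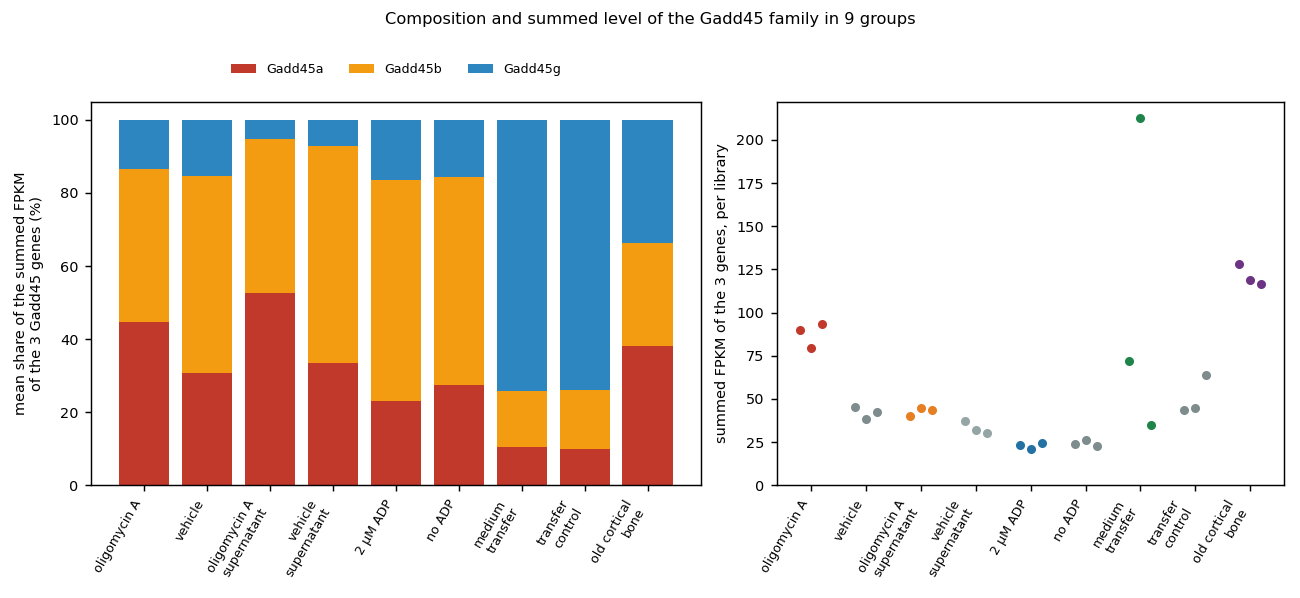
Left, mean share (%) of each Gadd45 gene in the summed FPKM of the 3 genes, in 9 groups of 3 libraries. Right, the summed FPKM per library (points), which spans 79.6 to 93.4 FPKM in oligomycin A cells and 38.4 to 45.5 FPKM in vehicle cells, and reaches 213 FPKM in medium transfer replicate 2.

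Across the 4 groups of the oligomycin A table, the highest group mean was 5.15 times the lowest for Gadd45g, 3.52 times for Gadd45a, 2.61 times for Plk2, 2.48 times for Plk3 and 2.03 times for Gadd45b, and 1.16 to 1.64 times for the others. Gadd45a was ordered as oligomycin A, oligomycin A supernatant, vehicle and vehicle supernatant, from high to low, and the last 2 groups overlapped. Gadd45g was ordered as oligomycin A, vehicle, vehicle supernatant and oligomycin A supernatant, and again the last 2 groups overlapped. Plk2 followed the order of Gadd45a, but its oligomycin A supernatant recipients (68.4 to 88.9 FPKM) overlapped vehicle cells (69.0 to 74.4 FPKM). Pearson's r of log2(FPKM + 1) was taken over the 12 libraries, which share groups, so r is a description. The 10 genes themselves and predicted genes with Gm or Rik names were left out. Genes with the most similar pattern were sought among the other tested genes. They were Chac1 for Gadd45a (r = 0.963), Map3k14 for Gadd45b (r = 0.965), Brd2 for Gadd45g (r = 0.991), Spry2 for Plk2 (r = 0.982), Phlda1 for Plk3 (r = 0.986) and Dus4l for Bbc3 (r = 0.964). The next were Zbtb10 and Zfp36l1 for Gadd45a, Dnaja1 and Nasp for Gadd45b, Csrnp2 and Ccno for Gadd45g, Adamts1 and Gdnf for Plk2, Rsad2 and Rhob for Plk3, and Ghitm and Tars for Bbc3. Among the 10 genes, r was highest between Plk2 and Plk3 (0.952), while Gadd45b and Gadd45g had 0.914 and Gadd45a and Gadd45g 0.522. Gadd45a, Plk3 and Cdkn1a share exon positions with genes on the opposite strand, E230016M11Rik (0.205 to 0.890 FPKM), Tctex1d4 (0 to 3.88 FPKM) and AC167363.2 (0.757 to 8.93 FPKM), and the sources used here do not say whether counting used strand.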

How the data were processed

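Oligo(dT)-selected RNA from bone and from MLO-Y4 cells was sequenced, according to the labels' protocols. FPKM values come as deposited by the authors in 4 tables, and the tool behind them was not given in the sources used here. HTSeq and mm10 appear in the submitters' processing notes without a stated use. Groups come from sample titles. The 10 genes and the lists were chosen with earlier results of these data known. Values were tested within a table on the log2(FPKM + 1) scale using limma 3.58.1 under R 4.3.3, with a trended variance prior and genes of mean 1 FPKM or more, so fold changes of low genes are understated. One fit covered the 4 groups of the oligomycin A table. Benjamini-Hochberg adjustment ran over all tested genes, with a threshold of 0.05. The plan allowed for counts, but FPKM are not counts and no count test was run: low values lay within 0.1 of a whole fragment for 38.1% to 42.1% of them in the cell line, 23.9% to 25.8% in the old and 23.8% to 30.6% in the young bone libraries. Positions are from GENCODE M21 (GRCm38), and 55154 gene IDs matched. Libraries of a table shared at most 0.0210% of their values, so none was taken for a repeat. The fit was run on simulated data with independent normal noise and no library-wide effects. That run therefore does not bear on effects such as the rRNA-like or satellite-like shares. All 10 genes are named in each comparison; from each list every called gene is named, up to 6 by p, or the 2 of smallest p. The 3 genes of highest r are named for each called gene, with the 10 genes and Gm or Rik names left out. Same-numbered libraries correlated at -0.228 to 0.0587 in their deviations from group means, so numbers were not taken to pair them. Other pseudocounts, filters, scalings, variance priors, blocks and the omission of each library were tried.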

Additional observations from a re-analysis of the deposited data

Results flagged for a closer look

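For Gadd45b the response of recipients (2 h) minus that of treated cells (1 h) was -0.77 ± 0.13 on the log2 scale (SE, limma adjusted p = 0.0197), a test of the difference itself over 3 libraries in each of 4 groups. Duration and route cannot be told apart. In treated cells 3 of 3 oligomycin A libraries were above every vehicle library, and in recipients the groups overlapped. The call was kept in 14 of 22 alternatives and lost in others, the replicate block among them (adjusted p = 0.0533), with a difference of -0.90 to -0.68 across them.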

How the results depend on the processing

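The 5 genes called higher in oligomycin A cells kept their direction in 17 alternatives, and 4 of them their call in each, the exception being Gadd45g. Genes called there numbered 636 (442 higher, 194 lower), and 386 with no filter on low values, 276 (257 and 19) rescaled to one total, 1168 (762 and 406) under median-of-ratios scaling, 1226 (704 and 522) under quantile normalization, 1137 (567 and 570) rescaled without mitochondrial, rRNA-like, 7S and satellite-like genes and 412 in a fit of only 2 groups. One total shifted the median over all tested genes to 0.12 here and to 0.14 in the vehicle pair. Leaving out 1 library gave 265 to 652 genes and 4 to 5 of the 10.

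In recipients 46 genes passed, 23 with no filter, 17 rescaled to one total, 77 under median-of-ratios scaling, 85 under quantile normalization, 69 rescaled without those genes, 7 in the fit of 2 groups and 28 with a replicate block; leaving out 1 library gave 22 to 59 genes and 0 to 2 of the 10. For the difference 53 passed, against 31 rescaled to one total (median of all genes -0.12), 100 under median-of-ratios scaling, 102 under quantile normalization, 104 rescaled without those genes and 35 with a replicate block. Gadd45b was the 1 called, and 0 were with no filter (adjusted p = 0.0636), rescaled to one total (0.0769) or with the block (0.0533). Leaving out 1 library gave 35 to 70 genes and 0 to 1 of the 10. In the vehicle pair 1746 passed (1129 higher, 617 lower), 587 (485 and 102) rescaled to one total, 829 in the fit of 2 groups, 2206 (1179 and 1027) under median-of-ratios scaling, 2208 (1120 and 1088) under quantile normalization, 2112 (1084 and 1028) rescaled without those genes and 1359 (628 and 731) without vehicle replicate 2. Of the 10 genes 4 passed, 2 with no filter, rescaled to one total or in the fit of 2 groups, and 7 with quantile normalization; leaving out 1 library gave 1002 to 1359 genes and 2 to 4 of the 10.

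With ADP 7 genes passed, 0 with no filter or a replicate block and 1 with a filter at 5 FPKM, and 0 to 40 without 1 library. In young bone 4 passed, 2 with a pseudocount of 0.5, rescaled to one total, with a constant prior or with a block, 1 with a filter at 5 FPKM, 0 with no filter, median-of-ratios, quantile or rescaled without those genes, and 0 to 7 without 1 library; 0 of the 10 passed in either comparison throughout. The replicate block made Bbc3 lose its call in the vehicle pair (adjusted p = 0.0651) and Gadd45b that of the difference, and changed no other call of the 10.

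Signs turned for values that did not pass. In treated cells Ccng1 was -0.0059 rescaled without those genes. In the difference, rescaled to one total, Mdm2 was -0.11, Ccng1 -0.12 and Phlda3 -0.049. With ADP, Mdm2 was -0.0080 rescaled to one total, -0.0059 with quantile normalization and -0.0050 rescaled without those genes. In young bone Bbc3 was -0.18, -0.51 and -0.33 and Phlda3 -0.17, -0.32 and -0.27 with median-of-ratios, quantile and rescaling without those genes, and Gadd45b -0.17 and -0.062 with the last 2. Without 1 library, ranges that crossed 0 were, in treated cells, Ccng1 -0.040 to 0.064 and Phlda3 -0.046 to 0.083. They were, in recipients, Gadd45g -0.12 to 0.047, Ccng1 -0.050 to 0.062, Bbc3 -0.017 to 0.23 and Phlda3 -0.0031 to 0.20, and in the difference Mdm2 -0.028 to 0.082, Ccng1 -0.063 to 0.060, Bbc3 -0.17 to 0.087 and Phlda3 -0.040 to 0.16. With ADP they were Gadd45b -0.017 to 0.065, Gadd45g -0.034 to 0.020, Plk3 -0.065 to 0.038, Mdm2 -0.014 to 0.030 and Cdkn1a -0.029 to 0.030, and in young bone Gadd45g -0.062 to 1.30, Bbc3 -0.50 to 0.65 and Phlda3 -0.34 to 0.92. The cause was not tested.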
